A study of Mus musculus with 12 samples.

Results

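The phase II conjugation enzymes examined here are 46 listed genes of the UDP-glucuronosyltransferase (Ugt), sulfotransferase (Sult), cytosolic glutathione S-transferase (Gst) and microsomal glutathione S-transferase (Mgst) families, together with Nat1, Nat2 and Tpmt. The list is by gene name and family, and it was chosen with earlier results of these data known. Of the 46, 41 had a probe set that named the gene alone, among 19938 such genes on the array: 11 Ugt, 8 Sult, 16 Gst and 3 Mgst genes, and the 3 others. Ugt1a1, Ugt1a6a, Ugt1a9, Sult2a1 and Gsta2 were read only by probe sets that name several genes, which are described apart.

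These enzymes carry out the second step of detoxification, in which a polar group is joined to a drug, steroid, bile acid, bilirubin or reactive lipid so that it can leave in bile or urine. UGTs transfer a sugar, mostly glucuronic acid from UDP-glucuronic acid, SULTs transfer sulfate from the donor PAPS, and GSTs join glutathione to electrophiles, while NATs acetylate with acetyl-CoA and TPMT methylates with S-adenosylmethionine. The newborn liver is known for conjugation that is still maturing, neonatal jaundice being the familiar result of low bilirubin glucuronidation. PPARα, the product of Ppara, is a nuclear receptor for fatty acids that binds DNA with RXR and drives fatty acid oxidation genes in liver.

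Whole livers were compared between 6 Ppara-/- and 6 Ppara+/+ suckling pups at postnatal day 2 (P2), with 3 males and 3 females of each genotype and 1 array per pup. Ppara-/- pups lack the receptor in the whole body, and Ppara+/+ pups are their wild-type counterparts. Both came from matings of heterozygous parents, so both genotypes were carried and suckled by heterozygous dams. By the paper's methods, the 6 pups of each genotype were drawn from 3 litters, but the litter of each pup is not given by the labels. The labels give the strain as SV129 and the methods a C57BL/6 background, and which of them applies to these livers was not settled. No treatment was given.

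The values are log2 signals after RMA, a summary that corrects background, aligns the distributions of the arrays and combines the probes of a probe set, so a difference of 1 is a doubling. Array medians lay between 7.16 and 7.2 and correlations between arrays between 0.989 and 0.996. The Ppara probe set itself ran from 10.21 to 10.33 (median 10.27) in Ppara-/- livers and from 10.98 to 11.27 (median 11.21) in Ppara+/+ livers, without overlap between genotypes. A signal above the array medians remained in the Ppara-/- livers, and whether the probes lie in the disrupted stretch of the gene was not tested. The 7 measured hepatocyte markers, which include Alb and Apoa1, had mean signals of 13.46 to 13.48 in Ppara-/- livers and 13.42 to 13.52 in Ppara+/+ livers. Ppara+/+ replicate 7, a female, stood apart: it was the highest of the 6 Ppara+/+ arrays for 23 of the 41 enzymes and 11 of the 16 Gst genes, against 26% of all 19938 genes. Values without this array are given beside many of the results it touches, though not all. Leaving out the highest Ppara+/+ value of a gene lowers the Ppara+/+ mean and so moves Ppara-/- minus Ppara+/+ upward. A call gained that way was partly set in advance and adds no support. Without this array 3.6% of all genes were called higher in Ppara-/- livers, against 1.99% with it.

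5 of the enzymes passed the genotype test, and the windows upstream of their starts are shown here because they are the DNA nearest to the genes on which the results turn. Each sequence holds the 250 bases before the first listed transcription start in RefSeq (GRCm38.p6), 5′ to 3′ on the strand of the gene. Capitals mark matches to the searched motifs, on either strand. The windows are chr15:9279579-9279828 on the plus strand for Ugt3a1, chr3:107986421-107986670 on the minus strand for Gstm2, chr19:4037913-4038162 on the minus strand for Gstp1, chr10:75781423-75781672 on the minus strand for Gstt3 and chr3:51660929-51661178 on the plus strand for Mgst2.
Ugt3a1: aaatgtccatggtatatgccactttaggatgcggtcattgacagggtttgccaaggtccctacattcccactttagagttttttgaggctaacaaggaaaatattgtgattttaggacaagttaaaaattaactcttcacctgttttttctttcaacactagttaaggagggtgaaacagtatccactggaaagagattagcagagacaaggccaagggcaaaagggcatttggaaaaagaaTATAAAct
Gstm2: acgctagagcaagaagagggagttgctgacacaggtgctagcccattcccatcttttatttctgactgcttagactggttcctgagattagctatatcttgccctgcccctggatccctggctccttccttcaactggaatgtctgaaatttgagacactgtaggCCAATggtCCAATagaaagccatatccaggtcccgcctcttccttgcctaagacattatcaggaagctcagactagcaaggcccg
Gstp1: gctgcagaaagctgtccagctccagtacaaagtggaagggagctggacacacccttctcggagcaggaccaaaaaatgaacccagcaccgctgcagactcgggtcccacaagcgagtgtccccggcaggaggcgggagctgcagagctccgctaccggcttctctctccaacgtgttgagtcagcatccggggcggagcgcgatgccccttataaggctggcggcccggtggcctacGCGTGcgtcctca
Gstt3: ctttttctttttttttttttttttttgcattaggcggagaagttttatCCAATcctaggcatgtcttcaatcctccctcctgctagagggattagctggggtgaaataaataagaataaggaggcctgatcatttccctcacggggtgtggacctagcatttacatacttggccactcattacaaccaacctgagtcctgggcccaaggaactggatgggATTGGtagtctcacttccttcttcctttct
Mgst2: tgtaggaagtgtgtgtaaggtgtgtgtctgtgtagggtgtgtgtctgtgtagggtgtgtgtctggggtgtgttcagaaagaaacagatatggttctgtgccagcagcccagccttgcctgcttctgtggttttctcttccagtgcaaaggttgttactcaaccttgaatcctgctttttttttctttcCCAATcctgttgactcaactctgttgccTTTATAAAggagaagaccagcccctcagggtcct

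The letters searched were AGGTCA (the hexamer that nuclear receptors such as PPARα bind as a repeat), TGACNNNGC (the core of the antioxidant response element read by NRF2), GCGTG (the core read by the aryl hydrocarbon receptor), TATAAA and CCAAT, each on both strands. Ugt3a1 held 1 TATAAA at -8 to -3 from its start. Gstm2 held CCAAT at -85 to -81 and again at -77 to -73, Gstp1 held GCGTG at -13 to -9, and Gstt3 held CCAAT at -202 to -198 and its reverse complement ATTGG at -30 to -26. Mgst2 held CCAAT at -62 to -58 and TATAAA at -32 to -27, which overlaps the reverse-strand match TTTATA at -34 to -29. Neither AGGTCA nor TGACNNNGC occurred in any of the 5 windows. Among the 40 listed enzymes with a window in the table, AGGTCA occurred in 9 (22.5%, against 13.8% of all 27025 windows of this length), TGACNNNGC in 3 (7.5%, against 10.1%), GCGTG in 8 (20%, against 28.2%), TATAAA in 4 (10%, against 13%) and CCAAT in 16 (40%, against 34.5%). The 9 windows with AGGTCA belonged to Ugt1a9, Ugt2b5, Ugt2b35, Ugt2b36, Ugt2b37, Ugt2b38, Sult1b1, Sult1e1 and Gstk1. Ugt1a9 had no probe set of its own, and none of the others passed the genotype test. A match describes these letters only, and nothing follows about binding from its presence or absence.

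Among the 41 enzymes, 1 was lower and 4 were higher in Ppara-/- livers. Ugt3a1 fell 2.42-fold, and Gstt3, Gstm2, Mgst2 and Gstp1 rose between 1.2- and 1.31-fold. A gene was called when its Benjamini-Hochberg adjusted p, from limma over all 35556 probe sets with sex as a covariate, was under 0.05. These were 2.44% of the enzymes on the lower and 9.76% on the higher side, against 1.12% of all 19938 genes on the lower and 1.99% on the higher side. Of the 41, 28 (68.3%) had a log2 fold change above 0 with a median of 0.10, whereas 45.1% of all genes lay above 0 with a median of -0.01. Signals of the 2 genotypes did not overlap for Ugt3a1 and Sult3a1 on the lower side and for Ugt2b34, Gstm2, Gstp1 and Gstt3 on the higher side, while over all genes 1.43% did not overlap on the lower and 2.88% on the higher side. At an unadjusted p under 0.05, 4 enzymes were lower and 15 higher (46.3% in all), against 1573 lower and 1848 higher of all genes (17.2% in all). The tests measure the spread between pups and do not separate the spread between litters. Since whole liver was used, fewer cells of a type and less RNA per cell cannot be told apart.

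**Figure D1:**
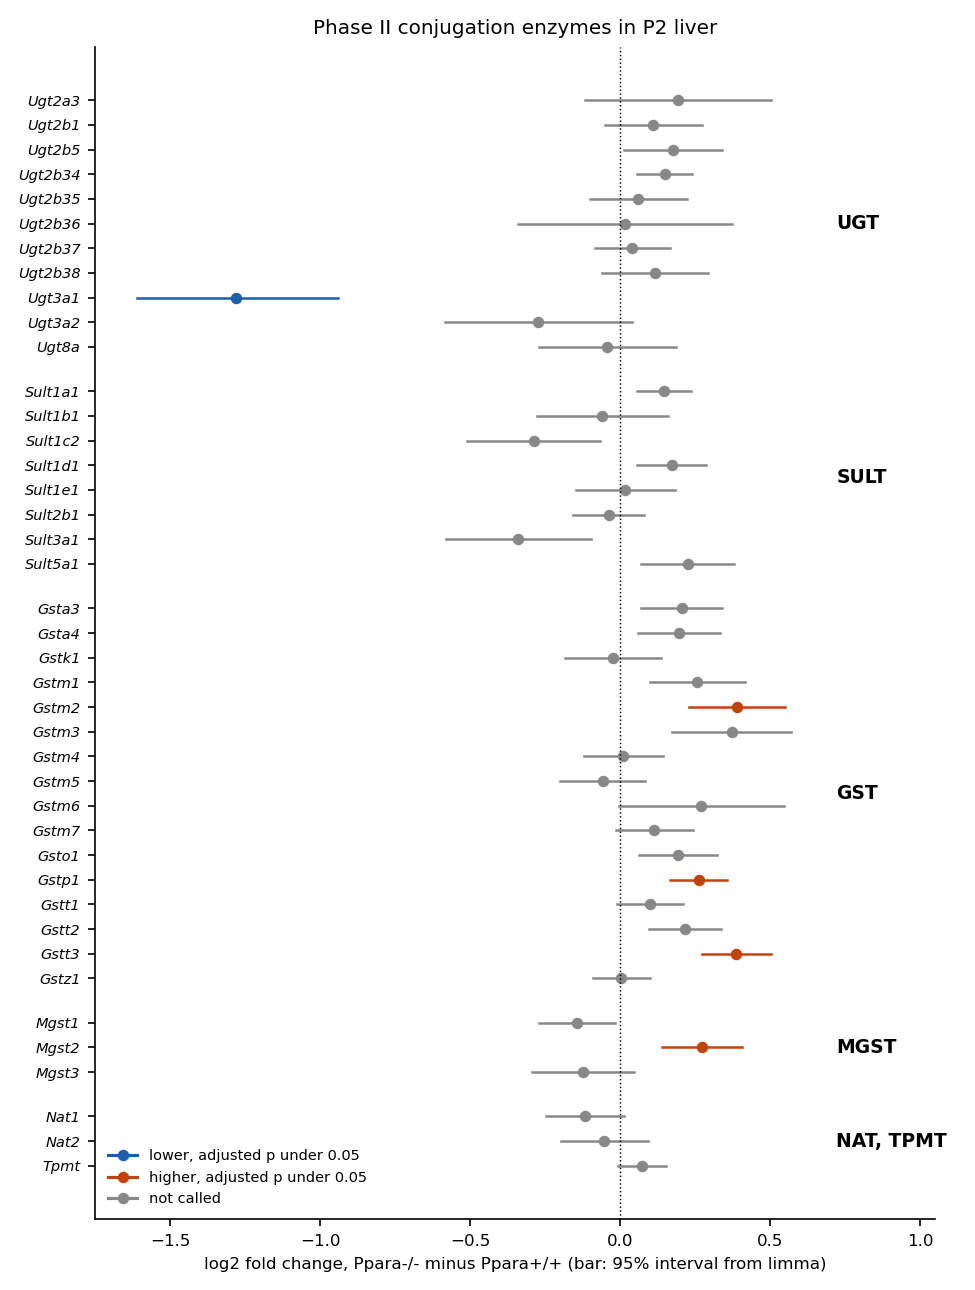
Log2 fold change (Ppara-/- minus Ppara+/+) of the 41 measured phase II enzymes by family, with the 95% interval from limma as bars; blue marks the enzyme called lower, orange the 4 called higher and grey those not called. Ugt3a1 lies alone at -1.28, and 14 of the 16 GST genes lie right of 0.

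The UGT family held the largest difference among the 41 enzymes and otherwise little. Ugt3a1 encodes a transferase whose human counterpart uses UDP-N-acetylglucosamine rather than UDP-glucuronic acid. Its log2 signal ran from 7.22 to 7.74 (median 7.45) in Ppara-/- livers, against 8.01 to 9.16 (median 8.84) in Ppara+/+ livers. All 6 Ppara-/- livers lay below every Ppara+/+ liver, the nearest being Ppara+/+ replicate 9 at 8.01. The log2 fold change was -1.28 (SE 0.153, limma adjusted p = 0.000848, n = 6 each), with means of 7.46 ± 0.19 in Ppara-/- and 8.73 ± 0.39 in Ppara+/+ livers (SD). Without Ppara+/+ replicate 7 it was -1.16 (adjusted p = 0.000646).

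Its chromosomal neighbour Ugt3a2, whose human counterpart uses UDP-glucose and UDP-xylose, ran from 9.71 to 10.38 (median 10.09) in Ppara-/- livers and from 9.72 to 10.74 (median 10.46) in Ppara+/+ livers. The ranges overlapped, and the log2 fold change of -0.27 did not pass the test (95% interval -0.58 to 0.04, limma adjusted p = 0.403). It was -0.15 without Ppara+/+ replicate 7 (adjusted p = 0.444). A pair of further probe sets names Ugt3a1 and Ugt3a2 together. Their log2 fold changes were -0.53 (adjusted p = 0.155) and -0.55 (adjusted p = 0.143), with Ppara+/+ replicate 9 below all 6 Ppara-/- livers in both, at 9.09 and 8.92. Without that pup both passed, at -0.68 (adjusted p = 0.0128) and -0.70 (adjusted p = 0.0129). That pup held the lowest Ppara+/+ value in both, so leaving it out moves Ppara-/- minus Ppara+/+ downward. These gained calls were therefore partly set in advance and add no support.

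The 8 measured genes of the Ugt2 cluster encode the transferases for steroids, bile acids and many drugs. All 8 had log2 fold changes above 0, between 0.02 (Ugt2b36) and 0.19 (Ugt2a3), with a median of 0.11, and none passed the test. Without Ppara+/+ replicate 7 they ran from 0.05 (Ugt2b37) to 0.29 (Ugt2a3), with Ugt2b36 at 0.17. Ugt2b34 came closest, with signals of 12.49 to 12.65 (median 12.52) in Ppara-/- livers and 12.29 to 12.43 (median 12.4) in Ppara+/+ livers. These did not overlap, but the change was 1.11-fold (log2 fold change 0.15, SE 0.0415, limma adjusted p = 0.104). Ugt2b5, at 0.18 (adjusted p = 0.302), passed without Ppara+/+ replicate 7 (0.24, adjusted p = 0.0491). Ugt2b36 had the widest spread of the cluster, with Ppara+/+ livers running from 10.73 to 11.84, so its 95% interval of -0.34 to 0.37 allows changes in either direction.

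Ugt8a, the ceramide galactosyltransferase of myelin, was dim in liver and did not differ detectably, with a log2 fold change of -0.04 (95% interval -0.27 to 0.18). Of the bilirubin- and phenol-conjugating Ugt1a locus the array had 1 probe set that names Ugt1a1, Ugt1a6a, Ugt1a9 and 5 other Ugt1a genes. It ran from 10.42 to 10.54 (median 10.43) in Ppara-/- livers and from 10.26 to 10.42 (median 10.37) in Ppara+/+ livers. The difference of 0.09 on the log2 scale (95% interval 0.00 to 0.17) did not pass the test (limma adjusted p = 0.312), and which Ugt1a gene it reads cannot be said.

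**Figure D2:**
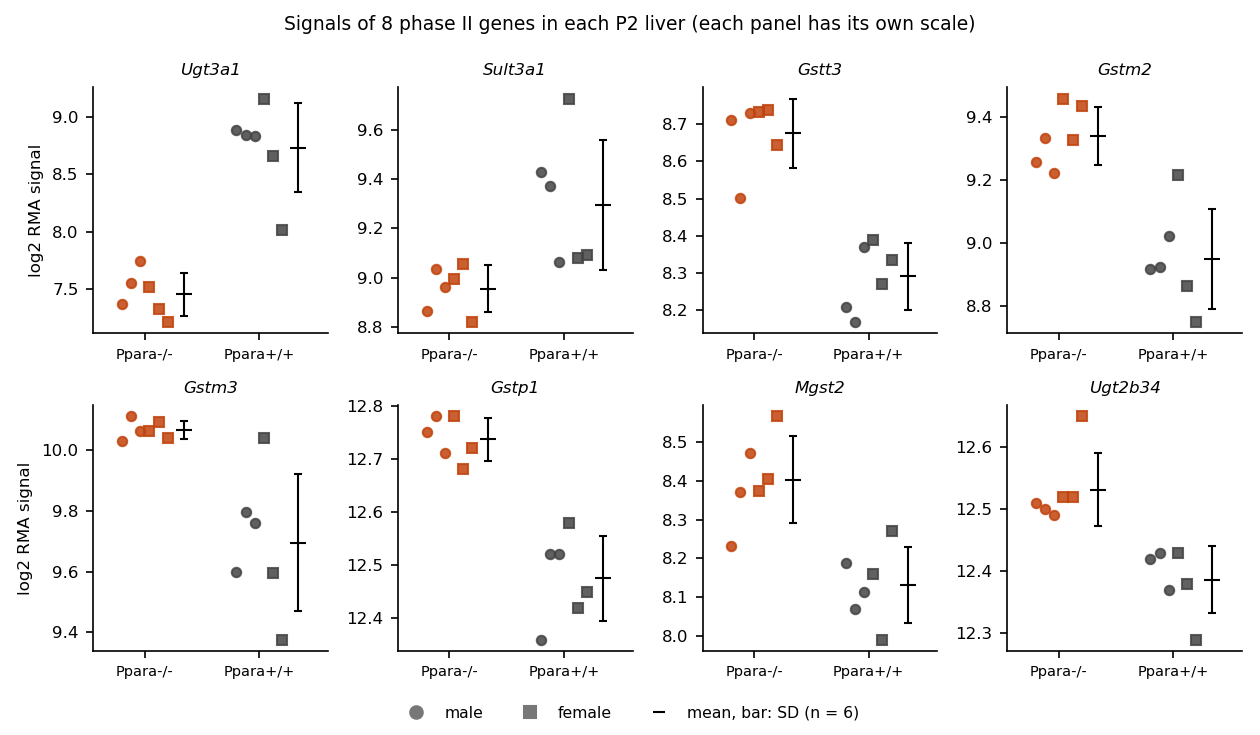
Log2 RMA signal of 8 phase II genes in each P2 liver, Ppara-/- left of Ppara+/+, with circles for males, squares for females and a bar for the mean and SD of 6 pups; each panel has its own scale. Ugt3a1 and Sult3a1 lie lower in all 6 Ppara-/- livers, and for Gstm3 the Ppara+/+ female at 10.04 is the only Ppara+/+ liver within the Ppara-/- range.

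No sulfotransferase with its own probe set passed the genotype test, and the 8 were divided evenly around 0, with 4 above and 4 below and a median of -0.01. The lowest was Sult3a1, an amine sulfotransferase, at 8.82 to 9.06 (median 8.98) in Ppara-/- livers and 9.07 to 9.73 (median 9.23) in Ppara+/+ livers. The genotypes did not overlap, though the highest Ppara-/- liver and the lowest Ppara+/+ liver nearly met. The log2 fold change was -0.34 (SE 0.111, limma adjusted p = 0.168), and it was -0.24 without Ppara+/+ replicate 7, the highest array at 9.73.

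Sult1c2 had a log2 fold change of -0.29 (limma adjusted p = 0.196), with 3 of 6 Ppara-/- livers below every Ppara+/+ liver. It was -0.22 without Ppara+/+ replicate 7 (adjusted p = 0.197). On the other side, Sult5a1 was at 0.22 (adjusted p = 0.153), Sult1d1, which sulfates catecholamines in the mouse, at 0.17 (adjusted p = 0.141), and Sult1a1, the phenol sulfotransferase, at 0.14 (SE 0.0407, adjusted p = 0.105). Sult1a1 passed without Ppara+/+ replicate 7 (0.16, adjusted p = 0.0481). Sult1b1, which sulfates thyroid hormone, was at -0.06, and Sult1e1 and Sult2b1, the estrogen and cholesterol sulfotransferases, lay below the array medians in both genotypes at 0.02 and -0.04.

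Sult2a1 belongs to the hydroxysteroid sulfotransferases, which sulfate bile acids and DHEA, and was read only together with close relatives. The probe set that names Sult2a1 and Sult2a2 ran from 7.72 to 8.35 (median 8.15) in Ppara-/- livers, against 8.66 to 9.30 (median 8.89) in Ppara+/+ livers. All 6 Ppara-/- livers lay below all 6 Ppara+/+ livers, a 1.74-fold fall (log2 fold change -0.80, SE 0.118, limma adjusted p = 0.00358). The probe set that names Sult2a1, Sult2a2, Sult2a4 and Sult2a5 ran from 5.93 to 6.42 (median 6.30) in Ppara-/- livers and from 6.69 to 7.16 (median 6.85) in Ppara+/+ livers, a 1.51-fold fall (-0.59, SE 0.0908, adjusted p = 0.00449). Its mean signals lay below the array medians in both genotypes, where differences are read less surely. Without Ppara+/+ replicate 7 the sets were at -0.73 (limma adjusted p = 0.00561) and -0.54 (adjusted p = 0.00733), in the order given. The fall was present in both sexes, at -0.84 in females and -0.76 in males for the brighter set. These signals belong to the Sult2a group, and no single gene of it can be credited with them.

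The cytosolic GSTs were mostly higher in Ppara-/- livers, each by a small amount. Of the 16 measured, 3 rose (18.8%, against 1.99% of all genes), 14 (87.5%) had a log2 fold change above 0, and the median was 0.20, against -0.01 over all genes. The mean signal over the 16 genes was 10.55 ± 0.03 in Ppara-/- livers (10.51 to 10.6) and 10.37 ± 0.09 in Ppara+/+ livers (10.28 to 10.51, SD, n = 6 each). Ppara+/+ replicate 7 gave the 10.51, and the other Ppara+/+ livers reached at most 10.4. Without that array the median was 0.22.

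Gstt3, a theta-class GST, had the smallest adjusted p of the family. Its signal ran from 8.50 to 8.74 (median 8.72) in Ppara-/- livers and from 8.17 to 8.39 (median 8.30) in Ppara+/+ livers. The genotypes did not overlap, and the rise was 1.31-fold (log2 fold change 0.39, SE 0.0525, limma adjusted p = 0.00203). It lies in a cluster with Gstt1, which conjugates small halogenated compounds, and Gstt2. Gstt2 was at 0.21 (SE 0.0547, adjusted p = 0.0727) with 5 of 6 Ppara-/- livers above every Ppara+/+ liver, and Gstt1 at 0.10 (adjusted p = 0.388).

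Gstp1, the pi-class enzyme, had the smallest change among the called genes and a narrow spread. It ran from 12.68 to 12.78 (median 12.73) in Ppara-/- livers and from 12.36 to 12.58 (median 12.48) in Ppara+/+ livers. Again the genotypes did not overlap, with a 1.2-fold rise (log2 fold change 0.26, SE 0.0439, limma adjusted p = 0.00775). A pair of probe sets that names Gstp1 and its near-copy Gstp2 rose as well. They ran from 10.1 to 10.27 and from 10.57 to 10.76 in Ppara-/- livers, against 9.85 to 10.05 and 10.31 to 10.53 in Ppara+/+ livers, with log2 fold changes of 0.30 (adjusted p = 0.00488) and 0.31 (adjusted p = 0.00716).

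The mu-class genes lie side by side, and 1 of the 7, Gstm2, passed the test. In chromosomal order the log2 fold changes were -0.06 for Gstm5, 0.11 for Gstm7, 0.27 for Gstm6, 0.37 for Gstm3, 0.39 for Gstm2, 0.26 for Gstm1 and 0.01 for Gstm4. The genes are near-copies, so probes of neighbours may read each other, which was not tested. Gstm2 had signals of 9.22 to 9.46 (median 9.33) in Ppara-/- livers and 8.75 to 9.22 (median 8.92) in Ppara+/+ livers. All 6 Ppara-/- livers lay above the Ppara+/+ livers, although the lowest of them and Ppara+/+ replicate 7 nearly met, and the rise was 1.31-fold (SE 0.0729, limma adjusted p = 0.0153).

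Gstm3 ran from 10.03 to 10.11 (median 10.06) in Ppara-/- livers, a very narrow band, and from 9.38 to 10.04 (median 9.68) in Ppara+/+ livers. It missed the threshold (SE 0.0902, limma adjusted p = 0.0606), and without Ppara+/+ replicate 7 it passed at 0.45 (adjusted p = 0.00326). A further probe set that names Gstm3 alone, not used in the counts, was higher by 0.40 (adjusted p = 0.026) with no overlap. That call was lost when 1 array was left out in 9 of 12 cases (adjusted p of 0.0512 to 0.0718), the exceptions being Ppara-/- replicate 12 and Ppara+/+ replicates 7 and 9. Gstm1, with 3 of 6 Ppara-/- livers above every Ppara+/+ liver, missed as well (SE 0.0723, adjusted p = 0.104), and passed without Ppara+/+ replicate 7 (0.31, adjusted p = 0.0202).

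**Figure D3:**
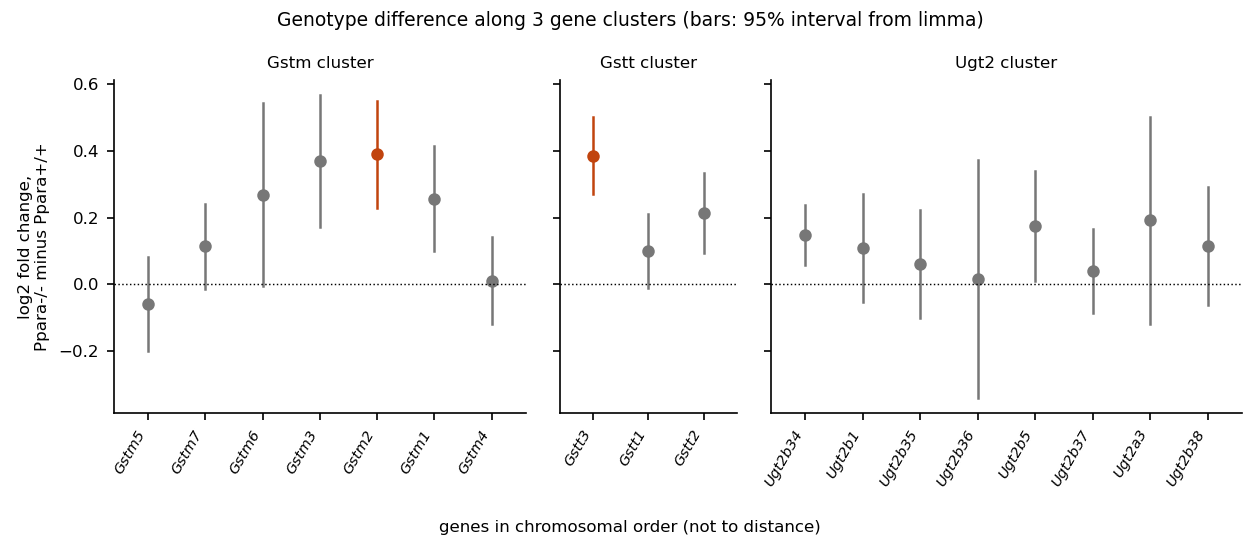
Log2 fold change (Ppara-/- minus Ppara+/+) with its 95% interval from limma for the genes of the Gstm, Gstt and Ugt2 clusters in chromosomal order; distances are not to scale, and orange marks genes called higher. In the Gstm row the values go from -0.06 at Gstm5 to 0.39 at Gstm2 and back to 0.01 at Gstm4.

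Among the alpha-class genes, Gsta3, which in the mouse detoxifies aflatoxin epoxide, was at 0.21 (SE 0.0615, limma adjusted p = 0.131). Gsta4, which clears the lipid peroxidation product hydroxynonenal, was at 0.20 (SE 0.0622, adjusted p = 0.155). Both passed without Ppara+/+ replicate 7, at 0.24 each (adjusted p of 0.0422 for Gsta3 and 0.0286 for Gsta4). In that fit 3.6% of all genes were called higher. Gsta2 was read only by 4 probe sets that also name Gsta1, Gm10639 and Gm3776. The set with the largest difference ran from 7.28 to 7.54 (median 7.37) in Ppara-/- livers, against 6.51 to 7.17 (median 6.82) in Ppara+/+ livers, and its log2 fold change was 0.50 (adjusted p = 0.03). The other log2 fold changes were 0.41 (adjusted p = 0.0421), 0.24 (adjusted p = 0.0741) and 0.22 (adjusted p = 0.0445). The 3 that passed did so with no overlap, near the array medians, and lost the call in 8, 10 and 10 of 12 fits that each left out 1 array, with adjusted p up to 0.106. None lost it without Ppara+/+ replicate 1 or 7, and the first also kept it without Ppara-/- replicate 4 or Ppara+/+ replicate 9. The set at 0.24 passed without Ppara+/+ replicate 1 (adjusted p = 0.00686).

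The GSTs of other classes did not pass. Gsto1, an omega-class enzyme that reduces dehydroascorbate, was at 0.19 (limma adjusted p = 0.142). Gstz1, the maleylacetoacetate isomerase of tyrosine breakdown, was at 0.00 (95% interval -0.09 to 0.10), and Gstk1, a mitochondrial and peroxisomal enzyme, at -0.02 (95% interval -0.18 to 0.14). Both intervals lie below the 0.26 of Gstp1.

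**Figure D4:**
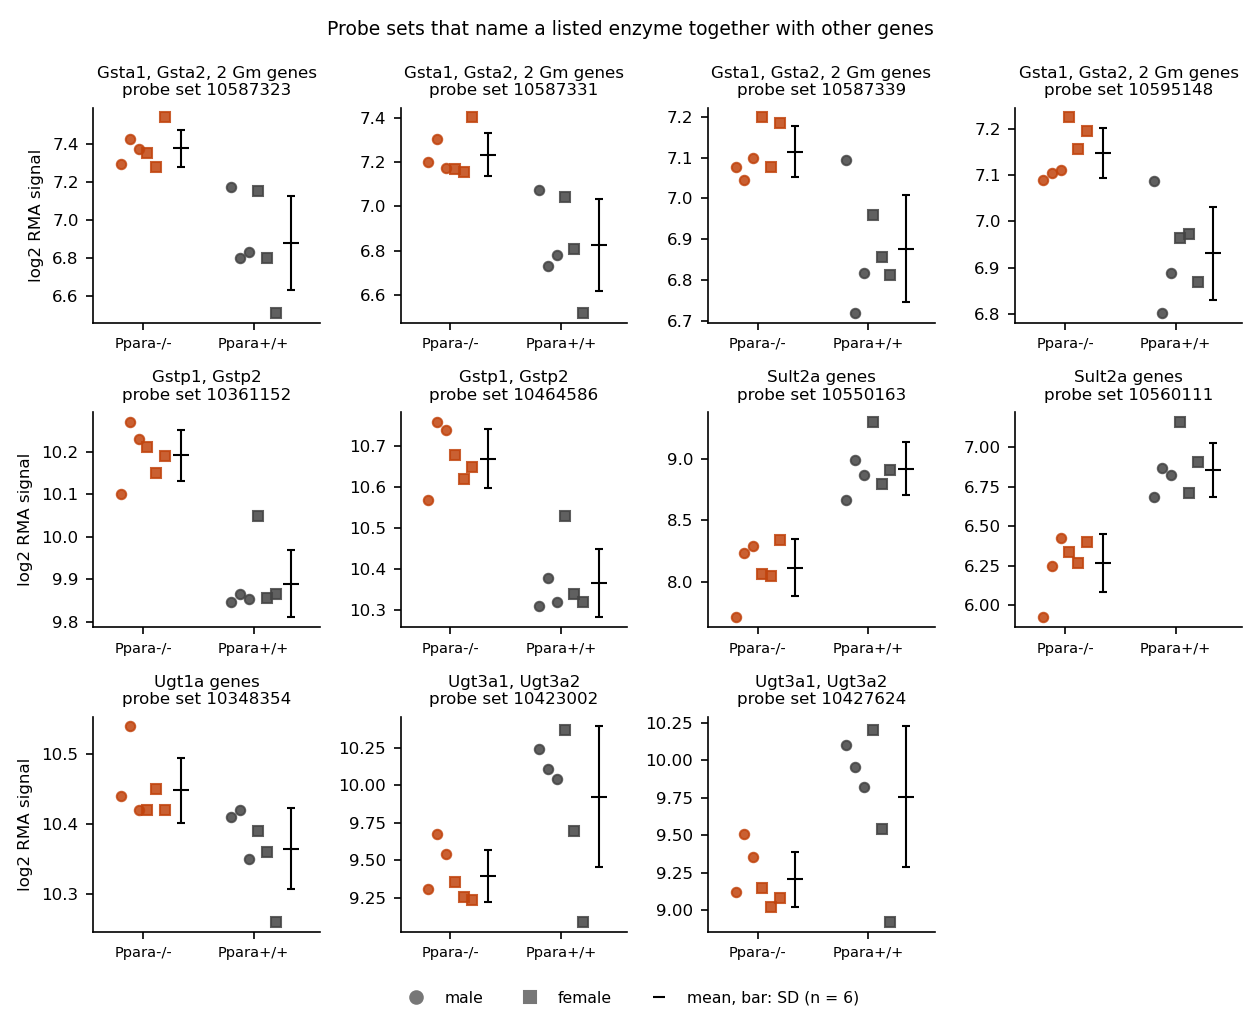
Log2 RMA signal in each P2 liver of the 11 probe sets that name a listed enzyme together with other genes, Ppara-/- left of Ppara+/+, with circles for males, squares for females and a bar for the mean and SD of 6 pups; each panel has its own scale. Both Sult2a sets lie lower and both Gstp sets higher in all 6 Ppara-/- livers, whereas the Ugt3a sets overlap through the Ppara+/+ liver at 9.09 and 8.92.

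The membrane-bound MGSTs went both ways. Mgst2, which also takes part in leukotriene synthesis, ran from 8.23 to 8.57 (median 8.39) in Ppara-/- livers and from 7.99 to 8.27 (median 8.14) in Ppara+/+ livers. With 5 of 6 Ppara-/- livers above every Ppara+/+ liver, it rose 1.21-fold (log2 fold change 0.27, SE 0.061, limma adjusted p = 0.0422). This call was the least stable of the 5, since it held among the fits that left out 1 array only without Ppara-/- replicate 4 or Ppara+/+ replicate 9 and was lost in the 10 others, with adjusted p of 0.0505 to 0.0957. Mgst1, the abundant microsomal enzyme of liver, was at -0.15 (SE 0.0579, adjusted p = 0.267) with 5 of 6 Ppara-/- livers below every Ppara+/+ liver, and Mgst3 was at -0.12 (adjusted p = 0.508). Mgst1 was at -0.098 without Ppara+/+ replicate 7 (adjusted p = 0.249).

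The remaining enzymes did not pass. Tpmt, the thiopurine methyltransferase, had the smallest error of the 41 and was at 0.07 (SE 0.0368, 95% interval -0.01 to 0.15). Nat1 and Nat2, the arylamine acetyltransferases, were at -0.12 (95% interval -0.25 to 0.01) and -0.05 (95% interval -0.20 to 0.09). Nat1, Ugt2b37, Ugt8a, Sult1e1, Sult2b1 and Gstm6 had mean signals below the array medians, where differences are read less surely.

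The labels also give sex, and with 3 pups of each sex and genotype no difference between males and females was detected among the enzymes. No enzyme differed by sex at an adjusted p under 0.05, nor at an unadjusted p under 0.05, whereas 8 of all genes did after adjustment (0.0401%, with 555 at the unadjusted threshold). The smallest sex p was 0.063, for Ugt3a2, with males higher by 0.29 (95% interval -0.02 to 0.60). No enzyme showed an interaction of genotype and sex, where the smallest unadjusted p was 0.203 (Ugt2b34), and over all genes the interaction was called for 0 (0%), with 357 at an unadjusted p under 0.05 in limma. Ugt3a1 fell by 1.26 in females and by 1.3 in males on the log2 scale. For 35 of the 41 enzymes (85.4%) the 2 sexes had the same sign of log2 fold change, against 66.3% of all genes, and across the 41 the male and female log2 fold changes correlated at Pearson r = 0.951, or 0.888 without Ugt3a1, against 0.638 across all genes, given as a description across genes that share the same arrays.

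**Figure D5:**
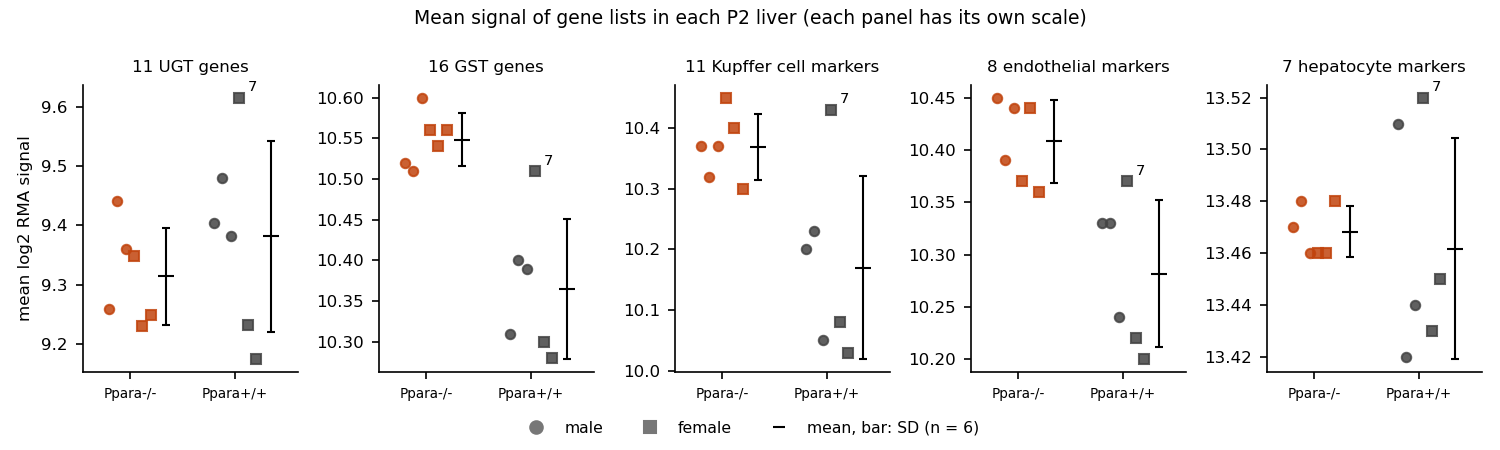
Mean log2 RMA signal over the 11 UGT genes, 16 GST genes, 11 Kupffer cell markers, 8 endothelial markers and 7 hepatocyte markers in each P2 liver, Ppara-/- left of Ppara+/+, with circles for males, squares for females, bars for the mean and SD of 6 pups and 7 marking Ppara+/+ replicate 7; each panel has its own scale. The GST and Kupffer cell panels both lie higher in Ppara-/- livers, apart from Ppara+/+ replicate 7 at 10.51 and 10.43.

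Markers of Kupffer cells and endothelium had log2 fold changes above 0, as most GSTs did, whereas erythroid markers lay below 0. All 11 Kupffer cell markers, among them Clec4f and Vsig4, had log2 fold changes above 0 with a median of 0.21, and their mean signal was 10.3 to 10.45 in Ppara-/- livers and 10.03 to 10.43 in Ppara+/+ livers. Ppara+/+ replicate 7 again gave the highest Ppara+/+ value, and the others reached at most 10.23. None of the 11 passed the test (9 had an unadjusted p under 0.05 in limma, as did 17.2% of all genes in either direction), and 5 did without that array, where 9 enzymes and 3.6% of all genes were called higher. All 8 endothelial markers lay above 0 as well (median 0.13), all 8 measured erythroid markers lay below 0 (median -0.17), and the hepatocyte markers centred on 0.02. None of these passed, and without that array Cdh5 and Kdr of the endothelial list (adjusted p of 0.00919 and 0.0391) and Epor and Tfrc of the erythroid list (0.0105 and 0.0302) did. Ppara+/+ replicate 7 had the lowest Ppara+/+ mean of the erythroid list (11.26). Leaving it out moves that list further down, so those erythroid calls add no support. In that fit 348 of all 19938 genes were called lower. Medians were 0.10 for stellate cell, 0.07 for cholangiocyte, 0.07 for granulocyte and 0.72 for pancreatic acinar markers, the last with SEs up to 0.717, and no gene of these lists was called, apart from the stellate marker Lrat without that array (adjusted p = 0.0386). Their part in the enzyme differences was not tested.

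Of 12 measured genes that supply the cosubstrates, 1 rose (8.33%, against 1.99% of all genes). This list was chosen with earlier results of these data known, so its share is a description only. Ugp2, which makes UDP-glucose, the precursor of UDP-glucuronic acid, ran from 10.86 to 11.07 (median 10.92) in Ppara-/- livers and from 10.56 to 10.7 (median 10.67) in Ppara+/+ livers, a 1.23-fold rise (log2 fold change 0.29, SE 0.0457, limma adjusted p = 0.00485). Ugdh, which oxidises UDP-glucose to UDP-glucuronic acid, was at 0.03, and Papss2 and Papss1, which make PAPS, were at 0.07 each. Gclc and Gclm, the subunits of the enzyme that limits glutathione synthesis, were at -0.01 and -0.03. The list median was 0.03.

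Other conjugating and epoxide-opening enzymes gave 3 falls among 11 measured (27.3%, against 1.12% of all genes). Here too the list was chosen with earlier results of these data known, so the share adds no support. Inmt, an indolethylamine N-methyltransferase, had the widest range, 8.44 to 9.89 (median 9.25) in Ppara-/- livers and 10.49 to 11.75 (median 10.9) in Ppara+/+ livers. It fell 3.38-fold (log2 fold change -1.76, SE 0.267, limma adjusted p = 0.00434) with no overlap. Its log2 fold change was -1.58 without Ppara+/+ replicate 7 (adjusted p = 0.00563). Acsm3, a medium-chain acyl-CoA synthetase, fell 1.3-fold (-0.38, SE 0.0621, adjusted p = 0.0073), and Ephx2, the soluble epoxide hydrolase, fell 1.23-fold (-0.30, SE 0.0372, adjusted p = 0.00113). Of the rest, Acsm5 was at -0.47 (adjusted p = 0.137) and Acsm1, a relative of Acsm3, at 0.17 (adjusted p = 0.0931, and 0.019 without Ppara+/+ replicate 7), while Baat, which joins bile acids to taurine, was at -0.03.

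None of the 8 measured genes for export and cleavage of conjugates passed. The canalicular pump Abcc2 was at 0.02 and the sinusoidal pump Abcc3 at 0.19 (limma adjusted p = 0.275). Abcc6, a relative of these pumps, was at 0.17 (adjusted p = 0.19), and the β-glucuronidase gene Gusb at 0.13 (adjusted p = 0.184).

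Among 11 measured transcription factors of phase II genes, chosen with earlier results of these data known, 1 rose (9.09%, against 1.99% of all genes). Ahr, the aryl hydrocarbon receptor, ran from 10.57 to 10.7 (median 10.65) in Ppara-/- livers and from 10.44 to 10.48 (median 10.46) in Ppara+/+ livers, without overlap (log2 fold change 0.18, SE 0.0325, limma adjusted p = 0.0108). Nfe2l2, which encodes NRF2, was at 0.09 (adjusted p = 0.272), Nr1i3 (CAR) at 0.10 (adjusted p = 0.274), Nr1i2 (PXR) at -0.08 (adjusted p = 0.382) and Nr1h4 (FXR) at -0.14 (adjusted p = 0.319). Listed target genes of NRF2, AHR, CAR and PXR outside the conjugation families did not pass, and targets of FXR were not listed. The 9 measured NRF2 targets had a median of 0.01, with Nqo1 at -0.10, Hmox1 at 0.10 and Slc7a11 at 0.13. The 9 AHR, CAR and PXR targets had a median of 0.07, with Cyp1a1 at 0.42 (SE 0.122, adjusted p = 0.119), Cyp1a2 at 0.25 (adjusted p = 0.439), Cyp3a11 at 0.15 (adjusted p = 0.177, and 0.0266 without Ppara+/+ replicate 7) and Aldh1a1 at -0.26 (adjusted p = 0.128).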

How the data were processed

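Whole-liver RNA of 12 pups was hybridized by the authors to Affymetrix mouse gene arrays, after selection for RNA integrity, and summarised by RMA (version not given in the sources used here). The deposited log2 values were used as they stand, without further normalization. The number of arrays limits the precision. The arrays carried 35556 probe sets, of which 21789 named 1 gene, 1621 several and 12146 none in the platform annotation. A gene was read from its probe set with the highest mean over the 12 arrays among those naming it alone. All 42 probe sets naming a single listed enzyme matched RefSeq by gene identifier.

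Models were fitted with limma 3.58.1 in R 4.3.3, as genotype plus sex over all probe sets, with Benjamini-Hochberg adjustment and a threshold of 0.05. Within-sex and interaction contrasts came from a fit of the 4 groups. The procedure was tested on simulated data. Log2 fold changes are Ppara-/- minus Ppara+/+. Alternatives changed the covariate, normalization, filter, variance model, array weights, test, minimum fold, probe set choice and each array in turn.

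The members and lists were chosen with earlier results of these data known. Named with values were Ppara, each called enzyme, Ugt3a1 and Sult2a1, enzymes with an outlying pup, the lowest and highest of each family, and called genes of the other lists with up to 3 more per list; further enzymes were named with their log2 fold change.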

Additional observations from a re-analysis of the deposited data

Results flagged for a closer look

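For 4 of 82 sets of 6 pups, 1 liver lay apart from the others by Dixon's criterion, and chance alone gives about 1 in 20. In Ppara-/- livers, Ugt2b34 reached 12.65 in replicate 12 with the next at 12.52 (gap over range 0.788), Ugt2b36 reached 11.57 in replicate 5 with the next at 11.21 (0.628), and Nat1 was at 4.39 in replicate 12 with the next at 4.47 (0.626). In Ppara+/+ livers, Gsta4 reached 10.35 in replicate 7 with the next at 10.15 (0.646).

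Signals outside the counts came from probe sets that name several genes or give Gstm3 again. Of 12 such sets, 8 passed the genotype test, 2 lower and 6 higher, against 1.12% of all genes lower and 1.99% higher. Several of the 8 read the same genes, so they are not separate results, whereas the shares count each gene once. The pair naming Gstp1 and Gstp2 was higher in Ppara-/- livers by 0.302 and 0.306 on the log2 scale. The set naming Sult2a1 and Sult2a2 had a log2 fold change of -0.801, and the set naming Sult2a1, Sult2a2, Sult2a4 and Sult2a5 had -0.592. Those naming Gsta1, Gsta2, Gm10639 and Gm3776 were at 0.501, 0.409 and 0.217, and the further Gstm3 set at 0.399. In that order, these calls were lost in 8, 10, 10 and 9 of the 12 fits that each left out 1 array. None of the 41 enzymes had an interaction of genotype and sex.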

How the results depend on the processing

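Against 1 enzyme lower and 4 higher in Ppara-/- livers, Ugt3a1 stayed called in 21 of 22 alternatives, and an exact Mann-Whitney test of 6 against 6 arrays called 0 lower and 0 higher after adjustment (smallest adjusted p = 0.0691), since its p cannot go below 0.00216. The count of higher enzymes was 8 without dim probe sets, where 37 enzymes were tested and 5.03% of genes were called higher, 8 with a robust variance trend (3.05% of genes), and 2 with a 1.3-fold minimum, Gstm2 and Gstt3 (0.707% of genes). Leaving out 1 array gave 3 to 9 higher enzymes, the 9 without Ppara+/+ replicate 7 (3.6% of genes), and 1 lower enzyme each time. Mgst2 lost its call in 12 of 22 alternatives. Counts for sex and for the interaction stayed at 0 wherever they were run.

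Log2 fold changes that turned were near 0 and never called: Gstm4 (-0.0014) and Gstz1 (-0.023) under quantile normalization, and Gstk1 (0.016) under array weights. With 1 array left out, ranges across 0 were -0.014 to 0.058 for Gstm4, -0.014 to 0.031 for Gstz1, -0.066 to 0.040 for Gstk1, -0.11 to 0.012 for Ugt8a, -0.074 to 0.17 for Ugt2b36, -0.036 to 0.053 for Sult1e1 and -0.11 to 0.0046 for Sult1b1. Over the 41 enzymes, 839 of the values kept direction and side of the threshold, 17 lost a call, 20 gained one and 22 changed sign. Of the 41, 36 were not called in the main fit, so most values that stayed were of uncalled enzymes. The causes were not tested. No analysis paired or blocked by litter was possible because the labels do not give the litter of each pup. Signals below the array medians limit 6 enzymes, and the dimmer Sult2a probe set as well.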
